A study of Homo sapiens with 12 samples.

Results

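The genes of DNA replication and S phase were examined in MCF10AT cells after knockdown of EP300, which encodes the histone acetyltransferase p300, a coactivator of transcription. MCF10AT is a human breast epithelial cell line that carries the oncogene HRasG12V, in the controls as well as in the knockdowns. The members are 42 genes of origin licensing, the replication fork and nucleotide synthesis, named by symbol and looked up among 24706 symbols that the table's 29094 RefSeq accession rows carry. All 42 were found, and 40 passed the filter on low counts and were tested. Messenger RNA was sequenced in 12 libraries, 3 per group: the stable lines EP300 KD1 and EP300 KD2, which express EP300 shRNAs, and the lines NS1 and NS2, which express non-silencing controls. The numbers are taken here to stand for different hairpins, which the labels do not state. All 4 lines had been transduced with lentivirus, selected with puromycin (1 µg/ml) for 3 days and grown in the same medium. Each EP300 hairpin was set against the control of the same number, a match that the labels imply only by the numbering. Whether replicates came from separate cultures is not stated, and the p-values therefore reflect library-to-library spread that could be technical alone.

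Replication starts with the loading of the MCM helicase onto origins by the origin recognition complex, CDC6 and CDT1 during G1. In S phase CDC45 and the GINS complex join the MCM ring to form the active helicase, primase and the polymerases copy both strands, the sliding clamp PCNA is placed by the RFC loaders, and FEN1 and ligase finish the lagging strand. Many of these genes are transcribed at the G1/S boundary by E2F factors, so their messenger RNA is widely read as a sign of proliferation. In bulk RNA, fewer cells in S phase and less of the transcript per cell cannot be told apart.

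Library totals ran from 31396653 to 45606950 counts. EP300 itself measured 171, 177 and 167 CPM (counts scaled to library size with TMM factors) in NS1, 108, 106 and 108 in EP300 KD1, 165, 180.3 and 177 in NS2 and 95.1, 99.9 and 92.3 in EP300 KD2. It was lower in every EP300 shRNA library than in any control, at 62.4% of NS1 in EP300 KD1 and 55.0% of NS2 in EP300 KD2 (log2 change -0.68 ± 0.03 and -0.86 ± 0.04, SE, edgeR adjusted p = 2.6e-12 and 1.1e-13). The loss was slightly deeper with the second hairpin (difference -0.18 ± 0.05, adjusted p = 0.00488), although not with library totals alone as the scaling (-0.11, adjusted p = 0.0627). The 11 epithelial markers summed to 7630 to 7781 CPM in NS1, 5962 to 6103 in EP300 KD1, 8799 to 8886 in NS2 and 5085 to 5161 in EP300 KD2. EPCAM lay between 175 and 272 CPM, CDH1 between 179.7 and 388 and KRT18 between 933 and 1539, whereas KRT14 did not exceed 1.11 CPM. KRT8 (at most 3.81 CPM) and the leukocyte gene PTPRC (at most 0.0309 CPM) are listed on 2 accession rows each. Summed over the 12 libraries, the median symbol split over more than 1 row held 23 counts and the median symbol on 1 row 252, so a low value of such a gene may not be its expression. Of 8 fibroblast markers, COL1A2, COL3A1 and LUM were at 0 in all libraries. The list summed to 46.5 to 48.4, 67.6 to 71.2, 27.9 to 30.2 and 25.9 to 28.4 CPM in the same order of groups. By group mean its highest gene was FBLN1 in NS1 and NS2 (30.3 and 15.4 CPM). In EP300 KD1 and EP300 KD2 it was DCN (43.3 and 10.9 CPM), which was lower in both control lines (7.31 CPM in NS1). COL1A1 had group means of 8.97, 16.3, 8.19 and 10.1 CPM. The 6 leukocyte markers summed to 40.9 to 49.9, 28.9 to 30.5, 46.2 to 50.8 and 15.5 to 16.2 CPM in the same order, nearly all of it CD14. The 4 endothelial markers summed to 28.7 to 32.6, 9.43 to 11.2, 38.2 to 40.5 and 5.33 to 6.04 CPM, nearly all of it PECAM1, and the 6 HEK293 and neural-type genes to 49.4 to 55.9, 98.8 to 112.6, 40.3 to 41.5 and 113 to 121 CPM, nearly all of it TUBB3. The part of these markers in the results below was not tested.

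The replication genes moved in opposite directions with the hairpins. Against NS1, 39 of the 40 tested member genes fell in EP300 KD1 and 0 rose (edgeR quasi-likelihood test, adjusted p under 0.05). The share of all 13424 rows that fell was 32.3%, and 32.6% rose. Against NS2, 38 of 40 rose in EP300 KD2 and 0 fell, where 27.9% of all rows rose and 29.9% fell. At an unadjusted p under 0.05 the counts were 39 lower and 0 higher with the first hairpin and 40 higher and 0 lower with the second. Shares of all rows at that looser threshold are not given here. DESeq2 likewise gave 39 lower and 0 higher, then 37 higher and 0 lower. The median log2 change over the members was -0.67 with the first hairpin and 0.43 with the second, beside -0.0058 and -0.0021 over all rows.

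Both calls held for the same genes in 38 of 40 cases, lower with EP300 KD1 and higher with EP300 KD2, a combination found in 5.68% of all rows. The difference between the changes was tested by itself and passed, with the second hairpin higher, for 39 of 40 members. In all rows that difference was called higher in 21.6% and lower in 29.2%. The comparisons share no library, and EP300 was reduced in both.

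The members' summed level shows the size of the shift. Over the 38 members with a single accession row, the libraries of NS1 summed to 3338, 3380.3 and 3363 CPM and those of EP300 KD1 to 2219, 2237 and 2246. The NS2 libraries summed to 3294, 3228 and 3275 CPM and those of EP300 KD2 to 4401, 4390.3 and 4531. The groups did not overlap: both control lines lay within a narrow band, with all EP300 KD1 libraries under it and all EP300 KD2 libraries over it. As a share of the scaled counts the 38 genes took 0.336% in NS1, 0.223% in EP300 KD1, 0.327% in NS2 and 0.444% in EP300 KD2.

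**Figure D1:**
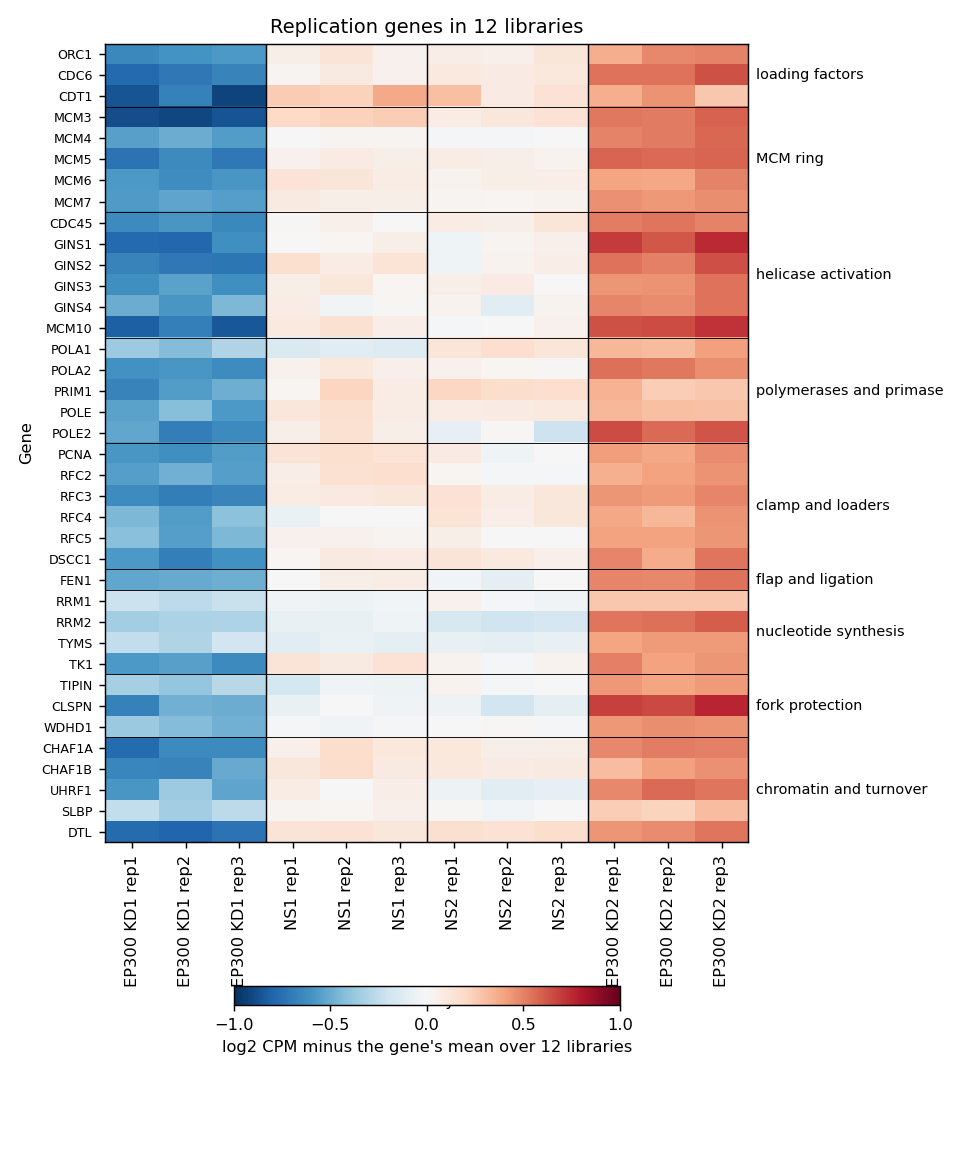
Heat map of 38 replication genes (rows, by role) in 12 libraries (columns), coloured by log2 CPM minus the gene's mean over all libraries. EP300 KD1 libraries are blue (lower), the controls near white and EP300 KD2 libraries red (higher), with the palest rows for RRM1 and SLBP.

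Gene by gene, EP300 KD1 had the lowest and EP300 KD2 the highest group mean in 39 of 40 members, an order seen in 11.8% of all rows. All EP300 KD1 libraries lay under all NS1 libraries for 39 members (33.8% of all rows), and all EP300 KD2 libraries over all NS2 libraries for 39 (30.9% of all rows). In all 40, every EP300 KD1 library lay under every EP300 KD2 library, against 26.6% of all rows. The exceptions were POLD1, whose EP300 KD1 and NS1 libraries overlapped, and CDT1, whose EP300 KD2 and NS2 libraries overlapped. The control chosen mattered little to this order in the members. EP300 KD1 was also under all NS2 libraries in 39 members (not POLD1). EP300 KD2 was over all NS1 libraries in 38 (not CDT1 and POLD1). Shares over all rows are not given for these crossed comparisons.

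The changes were moderate. With the first hairpin 25 members fell at least 1.5-fold and 2 at least 2-fold (MCM3 and CDT1). With the second 6 rose at least 1.5-fold and 0 at least 2-fold. The shares of all rows beyond these fold limits are not given here. Sizes did not go together across genes: over the 38 single-row members, Pearson's r between the log2 changes with either hairpin was 0.025 and Spearman's rho -0.036, a description across genes that share libraries.

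**Figure D2:**
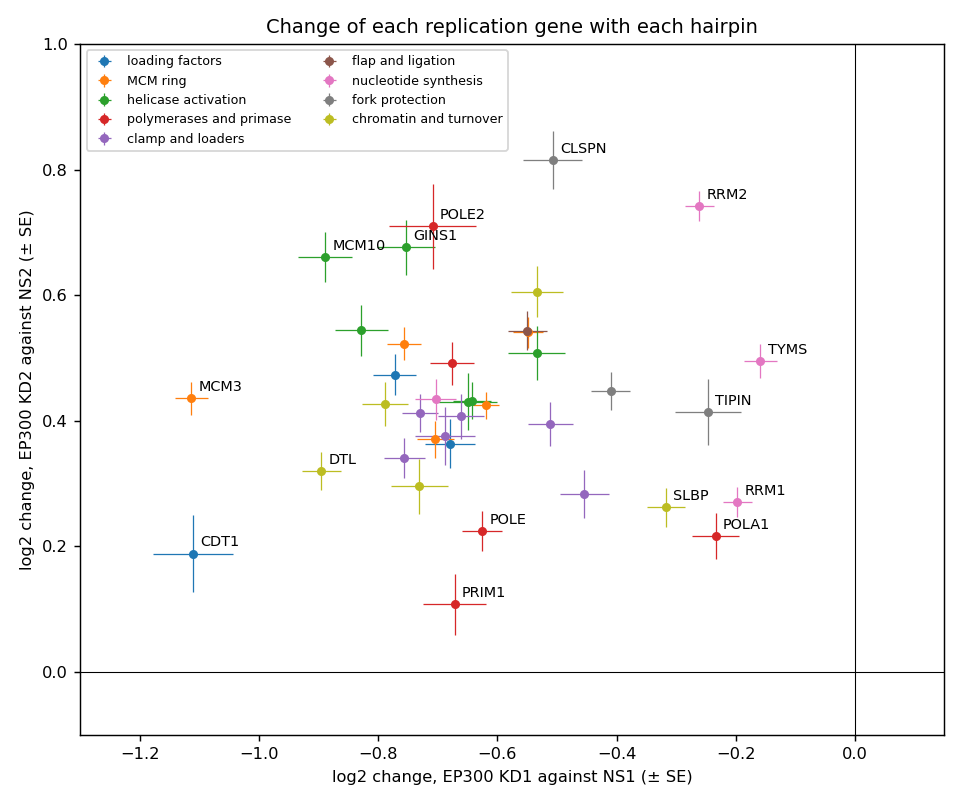
Log2 change with EP300 KD1 against NS1 (x axis) and with EP300 KD2 against NS2 (y axis) for 38 replication genes, with SE bars and colours by role. All points lie left of 0 on the x axis and above 0 on the y axis, without a common slope. They run from MCM3 (-1.11) to TYMS (-0.16) on the x axis and from PRIM1 (0.11) to CLSPN (0.82) on the y axis.

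Promoter sequence was looked at because the members moved together. The RefSeq table (GRCh38.p14) holds windows from 250 bases before to 50 bases after the start of 38 of the 42 members. The E2F-type words TTTCCCGC, TTTCGCGC, TTTGCCGC and TTTGGCGC, searched on both strands and allowed to overlap, were in at least 1 window of 21 of these 38 genes (55.3%). By the same count they were in 671 of 10218 tested genes (6.6%), and in 3.3% of all 35116 windows taken singly. The CCAAT word was in 23 of 38 members (60.5%) and 43.2% of tested genes (34.6% of windows), and the CHR words TTTGAA or TTCGAA in 2 of 38 (5.3%) and 16.0% (16.4% of windows). The median GC content was 67.3% in the members' windows, 64.7% in those of tested genes and 58.7% in all.

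The 20 tested members with an E2F-type word had median log2 changes of -0.71 and 0.43 with the first and second hairpin, and the 16 without had -0.60 and 0.42. Their median differences between the hairpins were 1.15 and 1.01. Both sets thus moved alike in direction, and a match of letters is not a measured binding site. Near spellings were not searched, so the genes without an exact word are not shown to lack E2F-type sites. Shown are the windows of the members with the widest (MCM10 and MCM3) and the narrowest (POLA1) hairpin difference. Windows of CDC6, MCM6 and PCNA, 3 genes of licensing, unwinding and the clamp, are added for comparison. All 3 of these hold an E2F-type word, and a further PCNA window without one is not shown. The printed windows read 5′ to 3′ on the gene's strand, and capitals mark the E2F-type words on either strand.

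MCM3 (chr6:52284693-52284992, minus strand): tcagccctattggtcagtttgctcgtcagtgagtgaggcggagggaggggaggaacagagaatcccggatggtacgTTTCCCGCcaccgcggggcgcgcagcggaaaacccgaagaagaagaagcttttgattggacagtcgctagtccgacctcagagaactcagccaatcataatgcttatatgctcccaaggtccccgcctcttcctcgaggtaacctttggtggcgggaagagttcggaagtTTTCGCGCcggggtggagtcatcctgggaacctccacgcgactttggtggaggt
MCM6 (chr2:135876394-135876693, minus strand): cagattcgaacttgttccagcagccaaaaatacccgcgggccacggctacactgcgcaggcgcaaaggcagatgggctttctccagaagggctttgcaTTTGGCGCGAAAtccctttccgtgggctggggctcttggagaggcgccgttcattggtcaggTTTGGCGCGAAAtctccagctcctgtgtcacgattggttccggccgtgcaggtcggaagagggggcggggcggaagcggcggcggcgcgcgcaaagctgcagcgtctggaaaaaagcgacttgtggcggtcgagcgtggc
CDC6 (chr17:40287629-40287928, plus strand): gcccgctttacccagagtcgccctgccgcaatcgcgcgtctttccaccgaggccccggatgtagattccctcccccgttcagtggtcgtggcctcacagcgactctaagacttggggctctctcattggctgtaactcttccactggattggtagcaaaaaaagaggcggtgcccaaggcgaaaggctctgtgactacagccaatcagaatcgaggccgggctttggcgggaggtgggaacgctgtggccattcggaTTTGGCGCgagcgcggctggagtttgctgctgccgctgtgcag
PCNA (chr20:5126573-5126872, minus strand): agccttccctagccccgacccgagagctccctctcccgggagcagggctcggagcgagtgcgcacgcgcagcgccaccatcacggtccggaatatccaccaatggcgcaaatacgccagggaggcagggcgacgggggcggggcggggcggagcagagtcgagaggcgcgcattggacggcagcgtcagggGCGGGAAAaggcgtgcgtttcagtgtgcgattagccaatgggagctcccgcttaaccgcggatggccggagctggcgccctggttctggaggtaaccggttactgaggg
POLA1 (chrX:24693668-24693967, plus strand): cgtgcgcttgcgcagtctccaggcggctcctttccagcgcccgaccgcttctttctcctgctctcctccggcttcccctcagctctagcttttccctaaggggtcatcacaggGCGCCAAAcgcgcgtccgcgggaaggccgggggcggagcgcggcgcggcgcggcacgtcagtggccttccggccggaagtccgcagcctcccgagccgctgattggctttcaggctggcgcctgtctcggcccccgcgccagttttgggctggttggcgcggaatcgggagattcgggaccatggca
MCM10 (chr10:13161308-13161607, plus strand): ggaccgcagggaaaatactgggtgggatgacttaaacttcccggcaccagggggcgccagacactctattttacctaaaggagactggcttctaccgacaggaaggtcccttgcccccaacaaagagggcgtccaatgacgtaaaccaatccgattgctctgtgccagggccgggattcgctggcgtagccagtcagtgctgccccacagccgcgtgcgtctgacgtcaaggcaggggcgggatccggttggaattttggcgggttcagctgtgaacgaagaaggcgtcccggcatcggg

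MCM3 holds a word near its start and a second further upstream, MCM6 a pair of runs in which words of both strands overlap, and CDC6 a word just past its start. PCNA and POLA1 each hold a word on the opposite strand. MCM10 has none of these exact words in its window, although the window holds tttggcgg, which differs from TTTGGCGC only in the last letter.

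The loading factors fell with the first hairpin and rose with the second, 3 of 3 tested in each. CDT1, which brings the MCM ring to the origin (NM_030928; chromosome 16, 88803789 to 88809258, gene bounds here and below from RefSeq, GRCh38.p14), measured 46.2, 45.5 and 50.5 CPM in NS1, 21.3, 24.3 and 20.4 in EP300 KD1, 47.7, 41.0 and 43.0 in NS2 and 50.0, 53.1 and 46.8 in EP300 KD2. Its EP300 KD1 libraries stood far under all others, while its EP300 KD2 and NS2 libraries overlapped. The log2 changes were -1.11 ± 0.07 (adjusted p = 3.14e-11) and 0.19 ± 0.06 (adjusted p = 0.0126). The rise did not pass without NS2 replicate 2 (0.15, adjusted p = 0.0688) or without EP300 KD2 replicate 2 (0.14, adjusted p = 0.0742), and ranged in adjusted p from 1.74e-06 to 0.0742 over 21 alternatives.

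ORC1, the ATPase subunit of the origin recognition complex (NM_004153; chromosome 1, 52372829 to 52409503), measured 44.9, 47.1 and 44.3 CPM in NS1 and 27.6, 28.5 and 28.9 in EP300 KD1. In the second set it measured 45.2, 44.7 and 47.0 CPM in NS2 and 55.4, 60.2 and 60.8 in EP300 KD2. The controls coincided, and each knockdown group stood clear of them on its own side (log2 changes -0.68 ± 0.04 and 0.36 ± 0.04). CDC6, the loading ATPase, had log2 changes of -0.77 ± 0.04 and 0.47 ± 0.03. ORC6, the smallest ORC subunit, has 2 accession rows, both at 0 counts in all 12 libraries, and was not tested. As for other symbols with several rows, these zeros cannot be read as absence of the transcript.

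The MCM ring, the hexamer that unwinds DNA, was called in 5 of 5 tested subunits in both directions. MCM3 (NM_002388; chromosome 6, 52264015 to 52284742) measured 246, 251 and 253 CPM in NS1 and 115, 114 and 117 in EP300 KD1. It measured 225, 230.1 and 236 CPM in NS2 and 307, 306 and 322 in EP300 KD2. EP300 KD1 thus kept 46.2% of the NS1 level, the largest fall of any member together with CDT1 (log2 -1.11 ± 0.03, adjusted p = 5.25e-17), and EP300 KD2 stood 1.35-fold over NS2 (0.44 ± 0.03, adjusted p = 3.83e-11). The difference between the changes was 1.55 ± 0.04 (adjusted p = 2.61e-15).

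MCM7 (NM_182776; chromosome 7, 100092728 to 100101397) had the narrowest difference of the ring. Its libraries measured 331, 324 and 324 CPM in NS1, 209.5, 216 and 211 in EP300 KD1, 316, 314 and 317 in NS2 and 426, 418 and 429 in EP300 KD2. The 4 groups stood apart without overlap, with the log2 changes -0.62 ± 0.02 and 0.42 ± 0.02. MCM4, MCM5 and MCM6, the other counted subunits, had log2 changes of -0.55, -0.76 and -0.70 with the first hairpin. With the second they had 0.54, 0.52 and 0.37. MCM3 was therefore the subunit that fell most but not the one that rose most. MCM2, the remaining subunit, has 2 accession rows with 0 counts in every library, which for the same reason do not show that it was not expressed, and its level was not analysed here.

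The factors that turn the loaded ring into a working helicase were called in 6 of 6 cases in both directions, with the highest median rise of any role tested over more than 2 genes (0.53). MCM10, a scaffold needed for helicase activation (NM_182751; chromosome 10, 13161558 to 13211110), measured 36.8, 38.2 and 35.9 CPM in NS1, 19.4, 21.3 and 19.0 in EP300 KD1, 34.0, 34.2 and 35.4 in NS2 and 53.3, 54.1 and 56.6 in EP300 KD2. From its lowest group to its highest, no libraries of knockdown and control overlapped. Its log2 changes were -0.89 ± 0.04 and 0.66 ± 0.04, and their difference of 1.55 ± 0.06 (adjusted p = 2.24e-13) was the largest among the members, level with that of MCM3.

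GINS4 (NM_032336; chromosome 8, 41529261 to 41545030) had the narrowest difference in this role. It measured 33.1, 30.7 and 31.7 CPM in NS1, 22.2, 20.9 and 22.9 in EP300 KD1, 32.2, 29.2 and 32.2 in NS2 and 43.9, 43.6 and 45.6 in EP300 KD2. Both control groups overlapped, and the knockdown groups lay on either side (log2 changes -0.53 ± 0.05 and 0.51 ± 0.04). The other GINS subunits, GINS1, GINS2 and GINS3, fell by 0.75, 0.83 and 0.65 on the log2 scale and rose by 0.68, 0.54 and 0.43. CDC45, which ties GINS to the ring, fell by 0.64 and rose by 0.43.

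**Figure D3:**
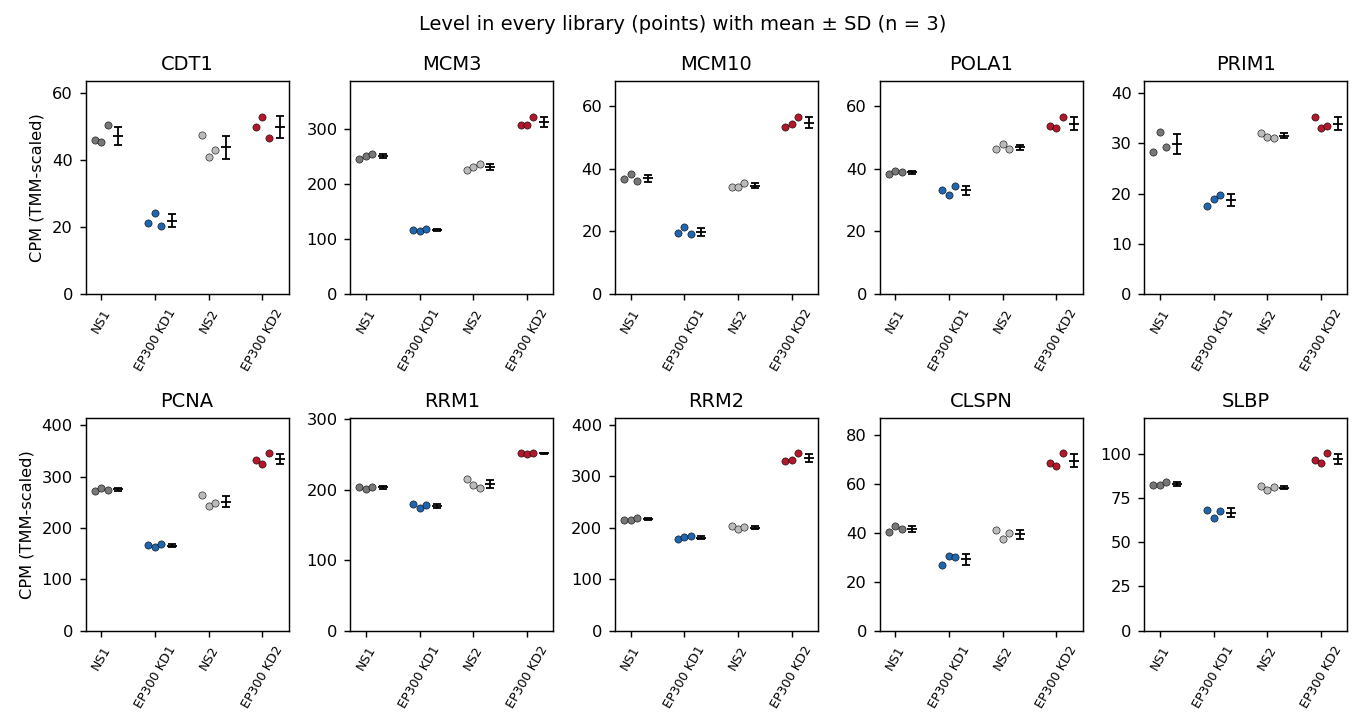
CPM of 10 replication genes in every library (points, coloured by group) with the mean and SD of each group (n = 3), axes from 0. EP300 KD1 libraries are lowest in each panel. EP300 KD2 libraries are highest except in CDT1, where they overlap both controls. The steps from NS2 to EP300 KD2 are smallest in PRIM1 and CDT1 on the log2 scale, and POLA1, RRM1 and SLBP have small steps with both hairpins.

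Among polymerases and primase, 5 of 6 tested members fell with the first hairpin and 4 rose with the second. POLE2, an accessory subunit of polymerase epsilon (NM_002692; chromosome 14, 49643555 to 49688214), measured 10.7, 11.4 and 10.7 CPM in NS1, 7.16, 6.34 and 6.59 in EP300 KD1, 9.70, 10.3 and 8.88 in NS2 and 16.1, 15.2 and 15.9 in EP300 KD2. Its changes were nearly mirror images (log2 -0.71 ± 0.07 and 0.71 ± 0.07). POLE, the catalytic subunit of the same enzyme, fell by 0.63 and rose by 0.22, and POLA2, the regulatory subunit of polymerase alpha, fell by 0.68 and rose by 0.49.

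POLA1, the catalytic subunit of polymerase alpha (NM_016937; X chromosome, 24693918 to 24996986), departed from the others through its controls. Its libraries measured 38.4, 39.3 and 38.9 CPM in NS1, 33.1, 31.5 and 34.5 in EP300 KD1, 46.3, 47.7 and 46.2 in NS2 and 53.4, 53.1 and 56.6 in EP300 KD2. NS2 lay over NS1 without overlap (log2 0.27 ± 0.04, adjusted p = 3.02e-05), a step as large as either knockdown change (-0.23 ± 0.04, adjusted p = 3.39e-05, and 0.22 ± 0.04, adjusted p = 4.2e-05). The difference between the changes, 0.45 ± 0.05, was the smallest among the members that passed.

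PRIM1, the catalytic subunit of primase (NM_000946; chromosome 12, 56731580 to 56752323), measured 28.2, 32.2 and 29.2 CPM in NS1, 17.5, 18.9 and 19.8 in EP300 KD1, 32.2, 31.3 and 31.2 in NS2 and 35.4, 33.0 and 33.5 in EP300 KD2. Its loss was like that of the other members (-0.67 ± 0.05, adjusted p = 1.64e-09). Its EP300 KD2 libraries stood over those of NS2, but the log2 difference of 0.11 ± 0.05 did not pass (adjusted p = 0.0671, from 0.00246 to 0.252 over 21 alternatives, 6 of which called it). POLD1, the catalytic subunit of polymerase delta (NM_001256849), has 2 accession rows, of which the tested row held only 7 to 24 counts per library. It measured 0.584, 0.277 and 0.199 CPM in NS1, 0.353, 0.344 and 0.319 in EP300 KD1, 0.253, 0.211 and 0.307 in NS2 and 0.571, 0.357 and 0.401 in EP300 KD2. Neither log2 difference passed (-0.01 ± 0.37, adjusted p = 0.977, and 0.80 ± 0.37, adjusted p = 0.0759, the latter called in 3 of 20 alternatives). Being on several rows, its level is uncertain.

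The sliding clamp and its loaders were called in 6 of 6 cases in both directions, and their rises were the most even of the roles with more than 2 tested genes, from 0.28 to 0.41. PCNA, the clamp that tethers polymerases (NM_182649; chromosome 20, 5114953 to 5126622), measured 272, 279 and 274 CPM in NS1, 166, 163 and 169 in EP300 KD1, 264, 242 and 249 in NS2 and 333, 326 and 346 in EP300 KD2. It fell to 60.3% of NS1 (log2 -0.73 ± 0.03, adjusted p = 1.38e-13) and rose to 133% of NS2 (0.41 ± 0.03, adjusted p = 5.93e-10). NS2 was itself under NS1 (-0.13 ± 0.03, adjusted p = 0.00325), without overlap.

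RFC4, a loader subunit (NM_181573; chromosome 3, 186789900 to 186806482), measured 53.0, 55.8 and 55.4 CPM in NS1, 40.7, 37.6 and 41.7 in EP300 KD1, 61.1, 58.1 and 60.2 in NS2 and 72.6, 70.0 and 75.9 in EP300 KD2. It had the smallest changes of this role (-0.45 ± 0.04 and 0.28 ± 0.04), and NS2 stood over NS1 (0.13 ± 0.04, adjusted p = 0.0222). RFC2, RFC3 and RFC5 fell by 0.66, 0.76 and 0.51 and rose by 0.41, 0.34 and 0.40. DSCC1, a subunit of the alternative loader used in sister chromatid cohesion, fell by 0.69 and rose by 0.38.

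Of the genes that finish Okazaki fragments, the flap endonuclease FEN1 (NM_004111; chromosome 11, 61792911 to 61797238) measured 88.7, 92.7 and 93.6 CPM in NS1, 61.9, 62.6 and 63.4 in EP300 KD1, 87.4, 83.2 and 89.2 in NS2 and 125, 124 and 129.8 in EP300 KD2. The controls overlapped and both knockdown groups stood clear of them (log2 -0.55 ± 0.03 and 0.54 ± 0.03). LIG1, the replicative DNA ligase, is counted on 2 accession rows, of which the tested one is the non-coding transcript NR_110296 with 31 to 93 counts per library. That row measured 1.90, 2.06 and 1.99 CPM in NS1, 0.995, 1.40 and 1.05 in EP300 KD1, 1.61, 1.72 and 1.91 in NS2 and 2.21, 2.45 and 2.44 in EP300 KD2. Its changes had the members' directions (-0.78 ± 0.15, adjusted p = 0.000137, and 0.44 ± 0.14, adjusted p = 0.0109). The second was not called by DESeq2 (adjusted p = 0.0512), and its adjusted p ranged from 0.00382 to 0.0512 over 20 alternatives. As a residual of a gene split between rows, the level is uncertain.

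The genes of nucleotide synthesis stood apart in the first comparison: 4 of 4 fell, but with a median of -0.23, against -0.67 over all members, while their median rise with the second hairpin was 0.46. RRM2, the regulatory subunit of ribonucleotide reductase (NM_001165931; chromosome 2, 10122568 to 10211010), measured 215, 215 and 219.9 CPM in NS1, 178, 182 and 183 in EP300 KD1, 203, 197 and 201 in NS2 and 329, 332 and 345 in EP300 KD2. Its loss left 83.4% of NS1, and its gain reached 167% of NS2 (log2 0.74 ± 0.02, adjusted p = 4.05e-15). NS2 lay under NS1 (-0.11 ± 0.02, adjusted p = 0.00193).

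RRM1, the catalytic subunit of that enzyme (NM_001033; chromosome 11, 4094685 to 4138932), measured 204, 202 and 205 CPM in NS1, 179.9, 174 and 179 in EP300 KD1, 215, 207 and 203 in NS2 and 252, 251 and 252 in EP300 KD2. Its steps were small but larger than the spread (-0.20 ± 0.02, adjusted p = 1.04e-06, and 0.27 ± 0.02, adjusted p = 1.35e-08). TYMS, which makes thymidylate, had the smallest loss of the members called, 0.16 on the log2 scale in size (-0.16 ± 0.03, adjusted p = 5.93e-05), and rose by 0.50. The salvage kinase TK1 (NM_003258; chromosome 17, 78174079 to 78187204) was unlike these 3: it measured 90.7, 88.2 and 91.6 CPM in NS1, 55.7, 57.1 and 53.3 in EP300 KD1, 85.0, 82.0 and 84.9 in NS2 and 118, 109.5 and 113 in EP300 KD2. Its changes, -0.70 ± 0.03 and 0.43 ± 0.03, were close to the members' medians.

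**Figure D4:**
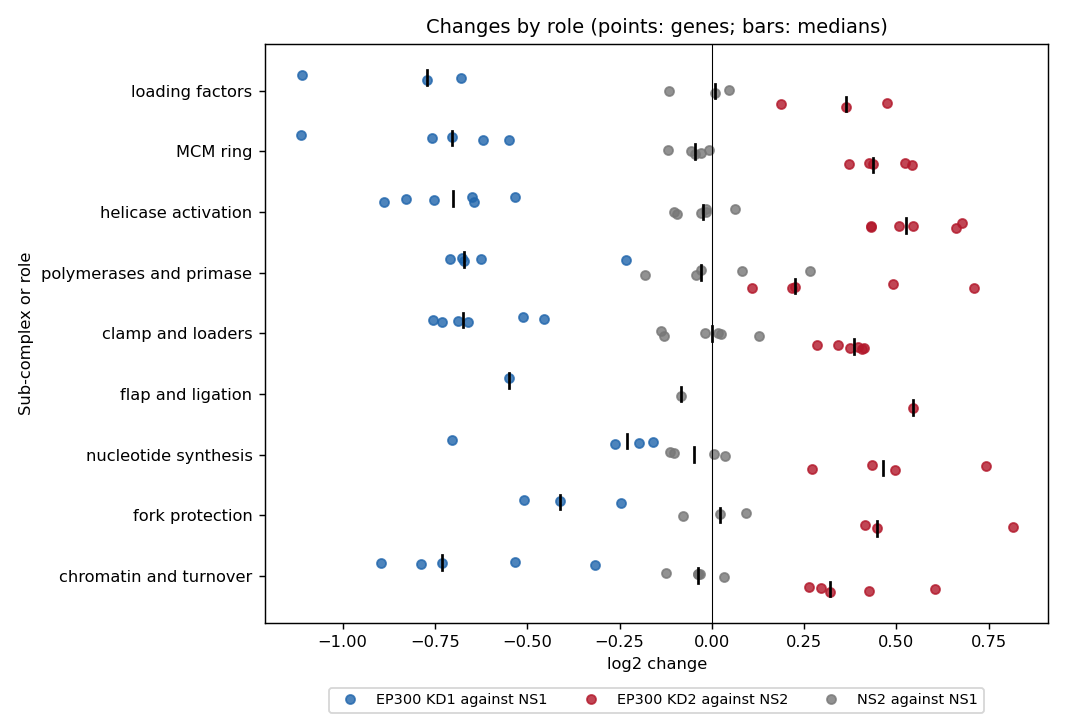
Log2 changes of 38 replication genes by role, for EP300 KD1 against NS1 (blue), EP300 KD2 against NS2 (red) and NS2 against NS1 (grey), with black bars at the medians. Blue points lie left of 0 and red points right of 0 in every role. Grey points lie on both sides of 0 except in the MCM ring and flap and ligation, where they lie left of it. Nucleotide synthesis and fork protection have the blue medians nearest to 0.

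Genes that protect the fork were called in 3 of 3 cases in both directions, with medians of -0.41 and 0.45. CLSPN, the checkpoint mediator claspin (NM_001190481; chromosome 1, 35720213 to 35769978), measured 40.6, 42.8 and 41.9 CPM in NS1, 26.8, 30.7 and 30.4 in EP300 KD1, 41.2, 37.6 and 39.9 in NS2 and 68.7, 67.5 and 72.7 in EP300 KD2. Its rise to 176% of NS2 was the largest called among the members (log2 0.82 ± 0.05, adjusted p = 1.24e-11). TIPIN, a partner of TIMELESS at the fork (NM_017858; chromosome 15, 66336191 to 66386717), measured 13.2, 14.4 and 14.4 CPM in NS1, 11.8, 11.3 and 12.3 in EP300 KD1, 15.2, 14.7 and 14.9 in NS2 and 20.1, 19.6 and 19.9 in EP300 KD2. Its loss was small (-0.25 ± 0.06, adjusted p = 0.000672) and its gain that of a typical member (0.41 ± 0.05). WDHD1, which links the helicase to polymerase alpha, fell by 0.41 and rose by 0.45.

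In the role of chromatin assembly and protein turnover, 5 of 5 were called in both directions. CHAF1A, the large subunit of the histone chaperone CAF-1 (NM_005483; chromosome 19, 4402640 to 4450830), measured 61.9, 67.3 and 64.0 CPM in NS1, 34.9, 38.3 and 38.4 in EP300 KD1, 64.0, 62.1 and 62.0 in NS2 and 83.1, 85.2 and 84.5 in EP300 KD2. Its controls overlapped and the knockdown groups lay on either side (-0.79 ± 0.04 and 0.43 ± 0.04). CHAF1B, another CAF-1 subunit, fell by 0.73 and rose by 0.30. DTL, which directs the destruction of CDT1 in S phase, fell by 0.90 and rose by 0.32.

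UHRF1, which guides DNA methylation to new strands (NM_001290050), was the member of this role that rose most (0.61 ± 0.04), and it fell by 0.53. SLBP, the binding protein of histone messenger RNA (NM_006527; chromosome 4, 1692731 to 1712319), measured 82.4, 82.2 and 84.0 CPM in NS1, 68.3, 63.8 and 67.6 in EP300 KD1, 81.9, 79.7 and 81.0 in NS2 and 96.4, 94.5 and 100.2 in EP300 KD2. Its groups were well separated although its changes were small (-0.32 ± 0.03, adjusted p = 5.1e-08, and 0.26 ± 0.03, adjusted p = 5.52e-07).

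The control lines differed little in these genes. Between NS2 and NS1, 2 of 40 members were higher and 6 lower, where 14.2% of all rows were higher and 13.4% lower. The higher ones were POLA1 and RFC4. The lower ones were MCM3 (-0.12), PCNA (-0.13), RFC2 (-0.14), RRM2 (-0.11), TK1 (-0.10) and UHRF1 (-0.12), each smaller in size than its change with either hairpin. At an unadjusted p under 0.05 there were 2 higher and 10 lower, again without a share over all rows. The libraries of both control lines overlapped in 22 of 40 members, a count for which no share over all rows is given here. RFC2 measured 46.3, 49.0 and 49.6 CPM in NS1 and 44.6, 43.4 and 43.8 in NS2, and UHRF1 measured 66.1, 62.7 and 65.7 in NS1 and 60.6, 58.6 and 59.4 in NS2, so that in both the lines did not overlap, but the gap between them was narrower than the spread within NS1. With knockdown RFC2 measured 30.1, 31.5 and 30.0 CPM in EP300 KD1 and 56.5, 58.3 and 60.2 in EP300 KD2, and UHRF1 measured 41.9, 48.8 and 43.6 in EP300 KD1 and 87.9, 93.0 and 91.1 in EP300 KD2, clear of both controls on either side. Without NS1 replicate 3 only 3 members were lower, and without NS1 replicate 1, NS2 replicate 1 or NS2 replicate 3 only POLA1 was higher. With upper-quartile factors 11 were lower and with library totals 10.

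Replication genes outside the 42 followed in part. Of 50 further replication factors, 45 were tested: with the first hairpin 30 fell and 2 rose (median -0.25), where 32.3% of all rows fell and 32.6% rose. With the second 36 rose and 2 fell (median 0.25), where 27.9% of all rows rose and 29.9% fell, and these shares also stand beside the counts of the next lists. EXO1, an exonuclease, fell by 0.98 and rose by 0.55, the MYC-responsive gene CDCA7 fell by 0.54 and rose by 0.71, and the histone chaperone NASP fell by 0.36 and rose by 0.53. ATAD2, a bromodomain ATPase, fell by 0.48 and rose by 0.49. These genes were picked for the smallest p of the hairpin difference in the list, which favours opposite changes. Among those that moved otherwise, SHMT1 was lower with both hairpins (-0.86 and -0.51) and MCM8 higher with both (0.22 and 0.51).

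Among 20 regulators of the G1/S step, 13 fell and 3 rose with the first hairpin (median -0.25), and 16 rose and 3 fell with the second (median 0.28). The transcription factors E2F1 and E2F2 fell by 1.12 and 2.20 with the first hairpin and rose by 0.39 and 0.16 with the second. For E2F2 that rise (edgeR adjusted p = 0.0403) was smaller in size than the step from NS1 to NS2 (-0.34 ± 0.06, adjusted p = 0.000422). Its EP300 KD2 libraries (16.9, 15.8 and 17.0 CPM) overlapped those of NS2 (14.9, 13.7 and 16.0) and lay under all of NS1 (19.1, 17.8 and 19.5). The level of E2F2 went from 18.8 ± 0.889 CPM in the NS1 libraries to 4.11 ± 0.221 with the first hairpin (SD, n = 3). MYBL2, an S phase transcription factor, fell by 0.96 and rose by 0.53, and the kinase gene CDK2 fell by 0.31 and rose by 0.53. The regulators named so far were picked in the same way, by the smallest p of the hairpin difference. Others moved otherwise: CDKN1A was higher with both hairpins (0.52 and 0.31) and CCND1 lower with both (-0.26 and -0.20). MYC rose with the first and fell with the second (0.19 and -0.21).

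Of 26 genes of G2 and mitosis tested, 26 rose with the second hairpin (median 0.44), where 27.9% of all rows rose. With the first hairpin 12 fell and 6 rose (median -0.03), where 32.3% of all rows fell and 32.6% rose. CDC20, AURKB, BIRC5 and PRC1, all acting in mitosis, fell by 0.11, 0.30, 0.17 and 0.18 and rose by 0.59, 0.43, 0.44 and 0.37. They were picked for the smallest p of the hairpin difference in this list. The 6 genes that rose with the first hairpin, by 0.10 (KIF20A) to 0.23 (BUB1), are not among them. Whether the lists differ from each other was not tested.

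**Figure D5:**
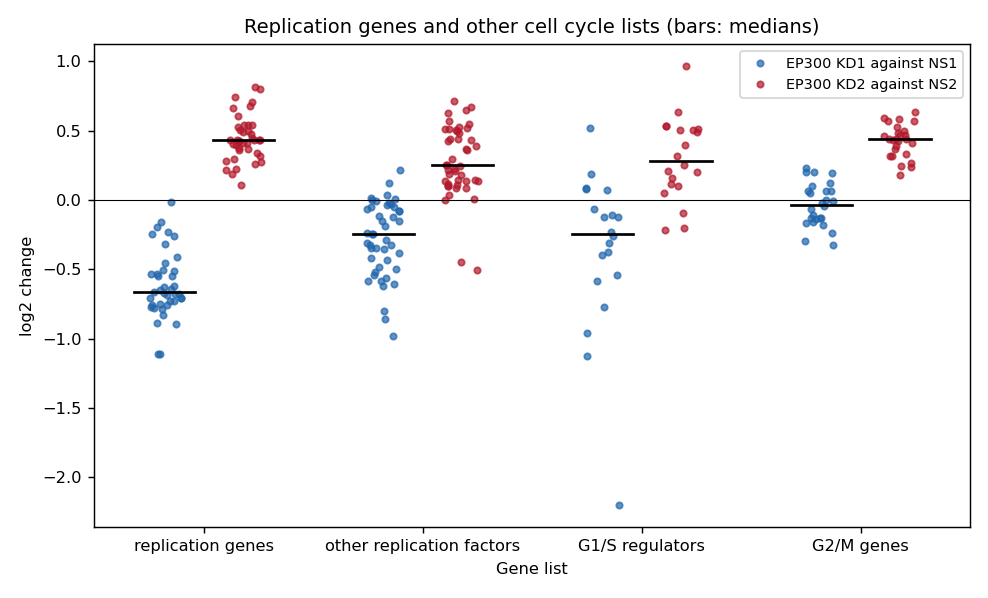
Log2 changes with EP300 KD1 (blue) and EP300 KD2 (red), each against its control, for 40 replication genes, 45 other replication factors, 20 G1/S regulators and 26 G2/M genes, with bars at the medians. Red medians are over 0 in all 4 lists, and the blue median is -0.67 for the replication genes and -0.03 for the G2/M genes.

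Some members share exons with other genes in GENCODE 29, and the counting's strand setting is not given in the sources used here. TYMS shares 967 exon bases with ENOSF1 on the opposite strand, MCM7 shares 277 with AP4M1, and FEN1 shares 166 with TMEM258. RRM2 and POLA2 share 1077 and 2012 bases with the annotated genes AC007240.1 and AP000944.2 on the same strand. POLD1 and PRIM1 share 426 and 362 bases with annotated genes on the same strand. GINS4, GINS3 and CLSPN share 1159, 394 and 280 bases with antisense genes, and 81 to 179 opposite-strand bases are shared by CHAF1A, RFC5 and LIG1. Levels of these members are uncertain to that extent.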

How the data were processed

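Messenger RNA was measured in 12 libraries (TruSeq stranded kit, per the labels). The authors used HISAT2 2.1.0, featureCounts and the build hg38, according to the submitters' processing notes. For the counter's version, its annotation and its strand and multi-mapping settings the sources used here give nothing. Raw counts for 29094 RefSeq accessions were deposited. Symbols and coordinates came from a RefSeq table (GRCh38.p14), which named 28134 rows, and the 960 others hold 0.702% of counts. All accession rows entered the fit, with or without a symbol, and the 12 columns all map to libraries. For 2189 symbols, 4 members among them, several rows exist.

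Rows were filtered with filterByExpr (minimum count 10), which left 13424, scaled by TMM and fitted with edgeR 4.0.16 (quasi-likelihood, 1 coefficient per group, all libraries, Benjamini-Hochberg over all rows, threshold 0.05). Standard errors were derived from the test statistic, and levels are TMM-scaled CPM. Log2 values in the heat map used a prior count of 2. Alternatives used DESeq2 1.42.0 and limma 3.58.1. No replicate pair was close enough to be the same library (chi-square over its degrees of freedom from 1.84 to 4.48). The fit was tested on simulated data, but the outcome is not given here, so that test says nothing about error rates in these libraries. The members, the lists and the tests were chosen with earlier results of these data known. Any member could be named. Values of every library are given for the widest and narrowest hairpin difference in each role and for members whose call departs from that of most members in a comparison, control against control included. From each other list the 4 genes with the smallest p for the difference were named.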

Additional observations from a re-analysis of the deposited data

Results flagged for a closer look

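The effect of EP300 shRNA differed between the lines for 39 of 40 tested members, by a test of the difference itself (change with EP300 KD2 against NS2 minus change with EP300 KD1 against NS1, log2 scale, edgeR, adjusted over all rows). In each of these genes the difference was positive. Among the loading factors it was CDT1 (1.30), CDC6 (1.25) and ORC1 (1.04). In the MCM ring it was MCM3 (1.55), MCM5 (1.28), MCM4 (1.09), MCM6 (1.07) and MCM7 (1.04). For helicase activation it was MCM10 (1.55), GINS1 (1.43), GINS2 (1.37), GINS3 (1.08), CDC45 (1.08) and GINS4 (1.04). Among polymerases and primase it was POLE2 (1.42), POLA2 (1.17), POLE (0.85), PRIM1 (0.78) and POLA1 (0.45). For the clamp and its loaders it was PCNA (1.14), RFC3 (1.10), RFC2 (1.07), DSCC1 (1.06), RFC5 (0.91) and RFC4 (0.74). In flap removal and ligation it was LIG1 (1.22) and FEN1 (1.09). In nucleotide synthesis it was TK1 (1.14), RRM2 (1.00), TYMS (0.65) and RRM1 (0.47). In fork protection it was CLSPN (1.32), WDHD1 (0.86) and TIPIN (0.66). For chromatin and turnover it was CHAF1A (1.22), DTL (1.22), UHRF1 (1.14), CHAF1B (1.03) and SLBP (0.58). POLD1, at 0.81 ± 0.53, did not pass (adjusted p = 0.214). Groups of 3 libraries are too small to be searched for outlying values.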

How the results depend on the processing

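In the hairpin comparisons and their difference, the counts of members called kept their direction and stayed within 1.5 times under all alternatives run. For EP300 KD1 between 38 and 39 fell and 0 rose, also under the 12 fits that leave out a library (39 in each), with medians from -0.69 to -0.64. For EP300 KD2 between 37 and 40 rose and 0 fell, and between 37 and 39 without single libraries, with medians from 0.40 to 0.50. The difference was called in 38 or 39 members. The settings were upper-quartile factors, library totals alone, DESeq2, limma-voom, no filter on low counts, pooled controls, only the groups compared, the replicate block and, chosen after seeing the data, a fit without symbols that have several rows. Scaling by upper quartile or by library totals moved the median over all rows to 0.049 and 0.067 with the second hairpin, and the members' median to 0.48 and 0.50. Only the comparison of the controls moved: 11 members were lower under upper-quartile scaling and 10 under library totals, in place of 6, and without single libraries 3 to 7 were lower and 1 to 2 higher. The cause was not tested. The deeper loss of EP300 with the second hairpin was -0.11 under library totals and no longer passed. Of single members' values, 838 with the first hairpin and 758 of the difference kept their call, and of 838 with the second 3 lost it, 9 gained it and 0 reversed. The same replicate numbers did not pair the libraries (correlations of deviations between -0.04 and 0.026), and with the replicate block 39 fell, 38 rose and 39 differed, with 7 and 2 lower and higher between controls. The common biological coefficient of variation of 0.03 makes small changes detectable, except in POLD1 and LIG1, whose rows hold few counts. Pooling controls, or fitting only the groups compared, gives no value for the difference.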
